A study of Mus musculus with 16 samples.

Results

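RNA-sequencing data of mouse bone marrow-derived macrophages (BMDMs) were analysed for 6 receptor genes, which are the CD300 receptors Cd300lf, Cd300a, Cd300lb and Cd300ld, the leukocyte immunoglobulin-like receptor Lilrb4a, and the paired immunoglobulin-like receptor Pirb. They were chosen by measured values. The log2 fold change of Cd300lf with the IKK inhibitor IKK-16 was the largest among 11388 genes that reached a minimum mean level. Related receptors were added to it. They make up 6 of the 55487 genes in the counts table, and all 6 were among the 12372 genes that passed the filter on low counts, which kept genes above 1 CPM (counts scaled to the size of the library) in at least 2 samples. Each of the 6 was above 1 CPM in all 16 samples, so none passed through the IKK-16 group alone.

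BMDMs are macrophages grown in culture from bone marrow, here from wild-type Balb/c mice aged 8 weeks, which the methods of the study describe as female. They were incubated with conditioned medium (CM) of 4T1 cells, a mouse mammary tumor cell line, or with DMEM, the culture medium without tumor factors, and RNA was collected from 16 cultures in 6 groups. The groups were DMEM (n = 2), DMEM with ruxolitinib (DMEM + Rux, n = 3), CM (n = 3), CM with 0.5 µM ruxolitinib labelled 4 h (CM + Rux, n = 3), the same combination labelled 2 h (CM + Rux 2 h, n = 2, replicates 2 and 3), and CM with 0.5 µM ruxolitinib and 0.8 µM IKK-16 (CM + Rux + IKK-16, n = 3). Ruxolitinib is an inhibitor of JAK1 and JAK2, and IKK-16 blocks the kinases that switch on NF-κB. The labels give no dose for the ruxolitinib of the DMEM + Rux samples, and a time only for the groups labelled 4 h and 2 h. The methods state serum-starved macrophages and a single treatment time for RNA, 4 h. In comparisons of the samples labelled 2 h with groups that carry no time, treatment and time cannot be told apart. Which cultures came from which mouse is not stated, so the p-values measure the spread between cultures, which may be in part technical. No group received IKK-16 without ruxolitinib and CM, so a response to IKK-16 alone cannot be told apart from one that needs the other agents.

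CD300 receptors and the leukocyte immunoglobulin-like receptors sit on the surface of myeloid cells as paired receptors, in which related extracellular domains are joined either to an inhibitory tail or to an activating adaptor. Inhibitory members carry ITIM motifs, which recruit the phosphatases SHP-1, SHP-2 and SHIP-1 once Src-family kinases have phosphorylated them. Activating members have short tails and signal through adaptors with ITAM motifs, such as DAP12 and the Fc receptor gamma chain, which engage the kinase Syk. Cd300lf (CLM-1) and Cd300a (CLM-8) are inhibitory receptors that bind lipids of dying cells, Cd300lb (CLM-7) and Cd300ld (CLM-5) are activating receptors of the same cluster, and Lilrb4a (gp49B) and Pirb are inhibitory receptors outside it. The genes thus include 2 activating receptors beside 4 inhibitory ones.

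The 4 CD300 genes lie on chromosome 11 of GRCm38. Cd300a (ENSMUSG00000034652) is at 114890041 to 114904654 on the plus strand. On the minus strand, Cd300lb (ENSMUSG00000063193) is at 114922781 to 114934386, Cd300ld (ENSMUSG00000034641) at 114982274 to 114989922 and Cd300lf (ENSMUSG00000047798) at 115116214 to 115133992. The span of Cd300lf lies inside that of Rab37, which is on the other strand and places no exon in it. Rab37 was between 0.0556 and 0.558 CPM in the 16 samples. Pirb (ENSMUSG00000058818) is on chromosome 7 at 3711409 to 3720391, on the minus strand, and Lilrb4a (ENSMUSG00000112148) on chromosome 10 at 51490956 to 51496611, on the plus strand.

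Promoter sequences of 5 of the 6 genes were matched in RefSeq (GRCm38.p6) and those of 3 are printed, because Cd300lf had the largest estimate with IKK-16, Cd300lb the largest decrease with CM, and Pirb the smallest adjusted p with ruxolitinib labelled 2 h. Each runs from 200 bases before to 20 bases after the start of the gene on the strand of the gene. The capitals mark GGAAGT, the core bound by ETS factors such as PU.1, which directs much of myeloid gene expression, or ACTTCC where that core is on the opposite strand. The stretches are chr11:115133973-115134192 for Cd300lf, chr11:114934352-114934571 for Cd300lb and chr7:3720363-3720582 for Pirb, all on the minus strand.
Cd300lf: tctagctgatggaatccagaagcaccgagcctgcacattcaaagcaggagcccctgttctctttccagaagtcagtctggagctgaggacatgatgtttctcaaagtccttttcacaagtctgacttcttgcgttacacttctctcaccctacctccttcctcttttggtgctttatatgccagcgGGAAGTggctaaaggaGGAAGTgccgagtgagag
Cd300lb: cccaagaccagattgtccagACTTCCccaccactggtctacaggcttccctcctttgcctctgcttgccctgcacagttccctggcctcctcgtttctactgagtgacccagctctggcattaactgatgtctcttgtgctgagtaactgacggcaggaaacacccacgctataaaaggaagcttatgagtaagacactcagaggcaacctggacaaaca
Pirb: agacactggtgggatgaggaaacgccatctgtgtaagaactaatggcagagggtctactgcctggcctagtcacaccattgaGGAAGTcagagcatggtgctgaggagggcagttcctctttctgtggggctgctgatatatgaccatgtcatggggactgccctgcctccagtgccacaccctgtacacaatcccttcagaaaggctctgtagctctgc

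Over windows of 300 bases (250 before and 50 after the start) searched on both strands, GGAAGT was present in 4 of the 5 matched promoters, those of Cd300lf, Cd300ld, Cd300lb and Pirb, and in 23.8% of 32851 promoters. In Cd300lf it began 14 bases before the start and again at base 3 of the gene. The longer PU.1 site GAGGAAGT, which contains that core, was found in Cd300lf, Cd300ld and Pirb and in 3.2% of all promoters. The decamer of NF-κB was matched in Cd300a and in Cd300ld, where it overlaps the ETS core, and in 8.46% of all promoters. The letters TTCNNNGAA of the STAT-bound GAS element were in none of the 5 windows and in 8.3% of all promoters, and the ISRE, the element of interferon-regulated genes, was in none of the 5 and in 3.44%. The AP-1 letters TGANTCA were likewise in none of the 5, against 7.81% of all promoters. The C/EBP letters TTGCNNAA were in Cd300a alone and in 10.8%, and TATAAA was in Cd300lb, 30 bases before its start, and on the opposite strand in Cd300lf, against 13.6%.

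The libraries held between 18449388 and 46215853 counted fragments. All 10 macrophage markers passed the filter, and their summed level was 40373 to 57296 CPM over the 16 samples. None of the 10 mast cell markers, which include Cpa3, Kit and Fcer1a, passed, nor did any of the 10 epithelial markers, and the sums reached at most 0.407 and 1.61 CPM. Of 10 neutrophil markers S100a8 and Mmp8 passed, with sums of 2.30 to 10.2 CPM, while Ly6g had no count in any sample. Of 10 T and NK cell markers Lck passed, with sums of 0.938 to 3.87 CPM, and of 10 dendritic cell markers Zbtb46, Ccr7, Batf3 and Bst2 passed. The dendritic sums of 87.2 to 156 CPM were mostly Bst2. Of 10 B cell markers Ighm and Cd79b passed, with sums of 80.1 to 144 CPM in DMEM and 10.6 to 14.3 CPM in CM that were nearly all Ighm. The B cell markers Pax5 and Blk had no count in any sample, and Ms4a1 had at most 2.

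Levels differed widely between the genes. Library totals behind the CPM values were scaled by RLE (relative log expression), and levels are compared between genes per kilobase of exon. In DMEM the mean level was 1.88 CPM per kilobase for Cd300lf, 67.1 for Cd300a, 69.7 for Cd300ld, 76.7 for Pirb, 102 for Lilrb4a and 193 for Cd300lb. Cd300lf was the lowest of the 6 and Cd300lb the highest. The Cd300lf values still rested on 103 to 2216 fragments per sample.

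**Figure D1:**
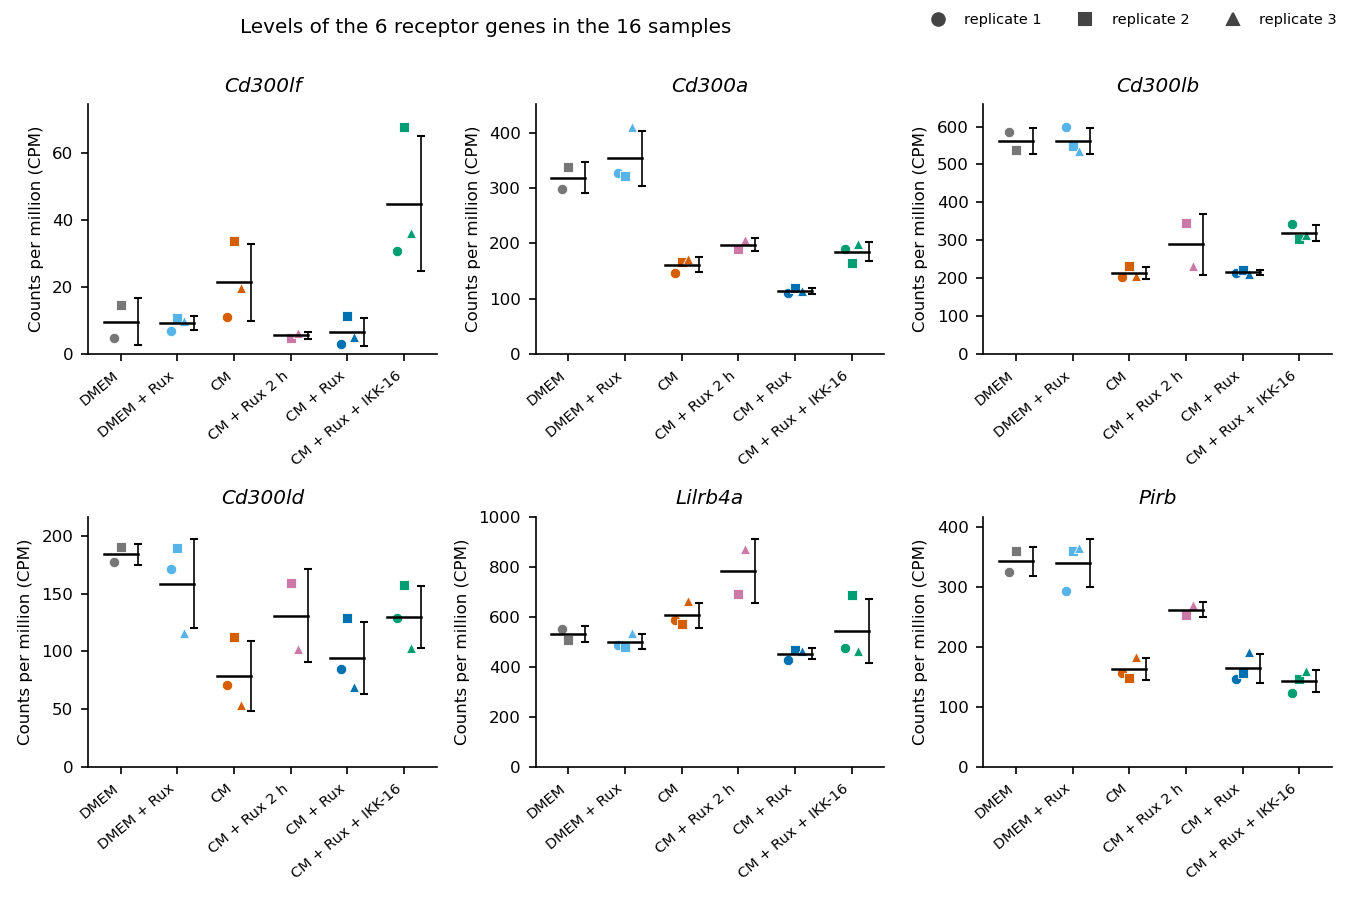
Levels of the 6 receptor genes (y axis, CPM on RLE-scaled totals, linear from 0) in the 16 samples by group (x axis). Points are samples, shaped by replicate number, black lines are group means and bars show the SD. Cd300lf sat between 30.7 and 67.7 CPM with IKK-16 and at or below 33.7 CPM elsewhere, while Cd300a, Cd300lb, Cd300ld and Pirb had their highest group means in the 2 DMEM groups.

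The comparison of CM with DMEM addressed what tumor factors do to these receptors, and it shares no sample with the IKK-16 comparison behind the choice of the genes. Genes were called at an adjusted p under 0.05 with a log2 fold change beyond 0.5. Of the 6 genes, 4 fell with CM (24.1% of all genes tested were called lower) and none was called higher (20.9% of all). The 4 were the inhibitory receptors Cd300a and Pirb and the activating receptors Cd300lb and Cd300ld.

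Cd300lb, an activating receptor that works with DAP12, was 586 and 538 CPM in the DMEM samples and 203, 233 and 207 CPM in the CM samples. The groups did not overlap, with both DMEM samples above every CM sample. It fell by 1.39 on the log2 scale with CM (SE 0.128, 95% interval -1.67 to -1.12, adjusted p = 6.80e-07 in edgeR's quasi-likelihood test), a level 2.62-fold lower.

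Pirb, which binds MHC class I molecules, was 326 and 360 CPM in DMEM against 156, 148 and 183 CPM in CM. Again every CM sample was below both DMEM samples. It fell by 1.08 on the log2 scale (SE 0.138, adjusted p = 1.41e-05), or 2.11-fold. Cd300a was 298 and 338 CPM in DMEM and 146, 167 and 172 CPM in CM, with a log2 fold change of -0.98 (SE 0.114, adjusted p = 6.16e-06). Here too the groups were apart, and the fall was 1.97-fold.

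Cd300ld, whose activating signal runs through the Fc receptor gamma chain, was 178 and 191 CPM in DMEM and 70.8, 113 and 53.1 CPM in CM. The CM samples differed from each other more than those of the other 3 genes that fell, with replicate 2 the highest. With a log2 fold change of -1.22 (SE 0.320, adjusted p = 0.00436), it was called lower with any 1 sample left out.

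Cd300lf and Lilrb4a were not called. Cd300lf, inhibitory and located at the end of the cluster, was 4.72 and 14.6 CPM in DMEM and 10.95, 33.7 and 19.7 CPM in CM. The groups overlapped, since replicate 2 of DMEM was above replicate 1 of CM. Within replicate numbers 1 and 2, however, the level in CM was 2.32 and 2.31 times that in DMEM. The estimate was 1.19 on the log2 scale (95% interval -0.069 to 2.45, adjusted p = 0.0923). With the replicate number as a block in edgeR, Cd300lf was called higher (1.21, adjusted p = 0.00122), though these groups share only 2 numbers. It was called higher without replicate 2 of DMEM (log2 fold change 2.20, adjusted p = 0.0280) and without replicate 1 of CM (1.49, adjusted p = 0.0433). Lilrb4a was 553 and 508 CPM in DMEM and 586, 570.3 and 663 CPM in CM, so the CM samples were all slightly higher. The log2 fold change of 0.19 (95% interval -0.13 to 0.52, adjusted p = 0.289) turned to -0.12 when libraries were scaled by total counts alone, a scaling that differs from RLE by 0.311 in the median of all genes here.

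In these bulk samples, fewer cells of a type and less RNA per cell cannot be told apart. The summed B cell markers, of which 2 of 10 passed the filter, were 80.1 to 144 CPM in DMEM and 10.6 to 14.3 CPM in CM, the direction of the 4 genes that fell, and their part in the result was not tested. Of these sums Ighm alone made up 78.9 to 143 CPM in DMEM and 10.3 to 14.0 CPM in CM. Cd79b, the other B cell marker that passed, was 1.06 to 1.21 CPM in DMEM and 0.0814 to 0.178 CPM in CM, the same direction. Of the B cell markers that did not pass, Pax5, Blk and Ms4a1 had at most 2 counts in any sample. The macrophage sum was 42569 to 44140 CPM in DMEM and 46487 to 55579 CPM in CM, so these 4 genes fell while the macrophage markers together did not.

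Ruxolitinib without tumor factors was examined by comparing DMEM + Rux with DMEM. None of the 6 genes was called in edgeR's test, in which 0.97% of all genes tested were called, all of them lower. None of the 6 had an unadjusted p under 0.05, and DESeq2 called 0 of them. The log2 fold changes ranged from -0.21 for Cd300ld to 0.15 for Cd300a, and all 6 genes overlapped between the groups. Cd300lf was 6.92, 10.9 and 9.77 CPM in DMEM + Rux, inside the range of the DMEM samples. Its 95% interval, -1.28 to 1.21 on the log2 scale, reached past 2-fold in both directions. The interval of Cd300lb, -0.28 to 0.27, was much narrower. Its 3 DMEM + Rux samples were at 599, 549 and 534 CPM.

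**Figure D2:**
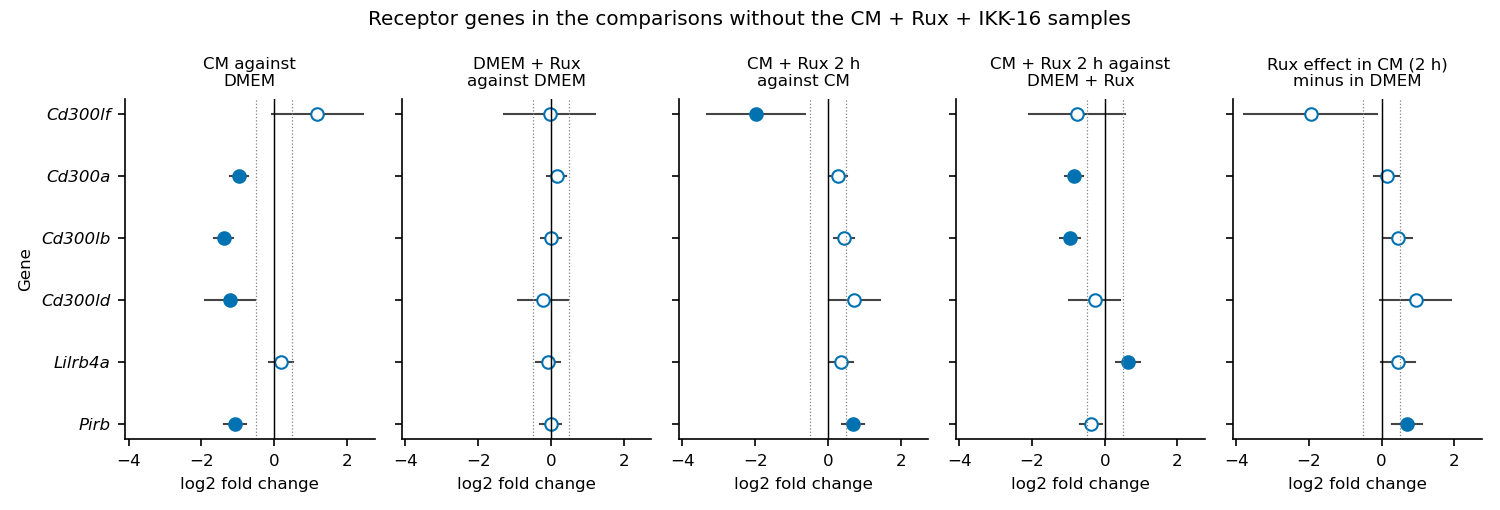
Log2 fold changes (x axis) of the 6 receptor genes (y axis) in the 5 comparisons that use no CM + Rux + IKK-16 sample and no CM + Rux sample labelled 4 h. Circles are estimates of edgeR, lines are 95% intervals, filled circles are called genes and dotted lines mark 0.5 in either direction. The Cd300lf estimate had the opposite sign to those of the other 3 CD300 genes in CM against DMEM (1.19) and in CM + Rux 2 h against CM (-1.99), and the widest intervals.

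In CM, ruxolitinib labelled 2 h was compared with CM alone, whose samples carry no time, again with no sample of the IKK-16 comparison. Pirb rose (14.6% of all genes tested were called higher) and Cd300lf fell (13.3% of all were called lower), so 1 of the 6 was called in each direction. The CM + Rux 2 h samples stood between CM and DMEM for Pirb and below CM for Cd300lf.

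Pirb was 254 and 271 CPM in the CM + Rux 2 h samples against 148 to 183 CPM in CM. Both samples were above every CM sample and below both DMEM samples. It rose by 0.69 on the log2 scale (SE 0.138, 95% interval 0.39 to 0.99, adjusted p = 0.00124), a 1.61-fold increase. The change from CM to CM + Rux 2 h was also set against that from DMEM to DMEM + Rux in a test of the difference itself. Pirb was the 1 gene of the 6 called there (10.5% of all genes tested were called higher). Ruxolitinib and treatment time cannot be told apart in this test, because the other 3 groups carry no time. The difference was 0.70 on the log2 scale (SE 0.196, adjusted p = 0.0190). None of the 6 was called lower there (8.61% of all were). The adjusted p was 0.0713 without replicate 3 of CM + Rux 2 h and 0.0756 without replicate 2 of DMEM.

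Cd300lf was 4.77 and 6.36 CPM in the CM + Rux 2 h samples, below all 3 CM samples. Its log2 fold change was -1.99 (SE 0.627, 95% interval -3.33 to -0.64, adjusted p = 0.0199), 3.96-fold lower. The call was lost without replicate 2 of CM, the highest of its group (log2 fold change -1.50, adjusted p = 0.0733), and without replicate 2 or replicate 3 of CM + Rux 2 h (adjusted p = 0.132 and 0.0701). The difference from the effect in DMEM was -1.95 with an adjusted p of 0.115, and it was called without replicate 2 of DMEM (-2.96, adjusted p = 0.0482).

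The other 4 genes were not called in CM + Rux 2 h against CM, and all had positive log2 fold changes. Cd300lb was 347 and 233 CPM, the second at the level of the highest CM sample. Its log2 fold change of 0.44 had an adjusted p of 0.0141 but stayed under the fold threshold, and it was called without replicate 3 of CM + Rux 2 h (0.69, adjusted p = 4.16e-04). Cd300ld was 159 and 102 CPM, with a log2 fold change of 0.73 (adjusted p = 0.0806) that was called without replicate 2 of CM (1.08, adjusted p = 0.0155). Cd300a was 189 and 206 CPM (0.29, adjusted p = 0.0571) and Lilrb4a 692 and 874 CPM (0.37, adjusted p = 0.0617), both with no overlap with CM. Lilrb4a was called without replicate 2 of CM + Rux 2 h (0.52, adjusted p = 0.0395). In the test of the difference from the effect in DMEM, Cd300ld was called without replicate 2 of CM (1.30, adjusted p = 0.0411) and Cd300lb without replicate 3 of CM + Rux 2 h (0.70, adjusted p = 0.00485).

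The B cell sum also stood between the groups in CM + Rux 2 h, at 55.7 to 71.4 CPM, and so did Cd79b, at 0.467 to 0.552 CPM. That is the order seen for Pirb, and the part of B cells in that result was not tested. The neutrophil sum was 4.08 to 9.28 CPM in CM + Rux 2 h and 9.32 to 10.2 CPM in CM, the direction of Cd300lf, also not tested. Mast cell markers summed to at most 0.407 CPM in any sample.

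Tumor factors were compared once more with ruxolitinib present on both sides, in CM + Rux 2 h against DMEM + Rux. Cd300a and Cd300lb fell (21.7% of all genes tested were called lower) and Lilrb4a rose (18.4% were called higher). Cd300lb was 1.93-fold lower (log2 fold change -0.95, SE 0.133, adjusted p = 3.53e-05) and Cd300a 1.79-fold lower (-0.84, SE 0.118, adjusted p = 3.82e-05). In both genes the 2 CM + Rux 2 h samples were below all 3 DMEM + Rux samples. Lilrb4a was 489, 479 and 536 CPM in DMEM + Rux, under both CM + Rux 2 h samples, with a log2 fold change of 0.64 (SE 0.150, adjusted p = 0.00224). With total counts alone as the scaling, which differs from RLE by 0.37 in the median of all genes in this comparison, it was 0.27 with an adjusted p of 0.107, and without replicate 3 of CM + Rux 2 h it was 0.47. Pirb had a log2 fold change of -0.38 (adjusted p = 0.0347), short of the fold threshold, and was called lower with total counts alone (-0.74). Cd300ld (-0.28, adjusted p = 0.492) and Cd300lf (-0.76, adjusted p = 0.314) were not called. However, Cd300lf was called lower in a fit of only the 2 groups (adjusted p = 0.0219) and with the replicate number as a block (adjusted p = 0.00676).

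The comparison of CM + Rux + IKK-16 with CM + Rux addressed what changes when IKK is blocked in macrophages that also receive tumor factors and ruxolitinib. The genes were chosen with it, so its values and those of the other comparisons that use its samples are a description with no test. Cd300lf ranked first of the 11388 genes whose mean over the samples of both groups reached 1 CPM, with a log2 fold change of 2.74, followed by Fam83f at 2.67 and Angptl2 at 2.50. Cd300a ranked 359, Cd300lb 562, Cd300ld 883, Lilrb4a 1945 and Pirb 9144.

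Cd300lf was 3.10, 11.4 and 5.24 CPM in CM + Rux and 30.7, 67.7 and 36.0 CPM in CM + Rux + IKK-16. All 3 IKK-16 samples were above all CM + Rux samples, and replicate 2 of CM was the 1 sample without IKK-16 that reached their range. The log2 fold change was 2.74 (SE 0.528), or 6.70-fold, and ranged from 2.32 without replicate 2 of CM + Rux + IKK-16 to 3.47 without replicate 2 of CM + Rux. Replicate 2 was the highest sample in each of CM, CM + Rux and CM + Rux + IKK-16. Within replicate numbers 1, 2 and 3 the level was 9.91, 5.94 and 6.88 times that of CM + Rux, and these numbers paired the samples (correlation of deviations 0.503 to 0.631).

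**Figure D3:**
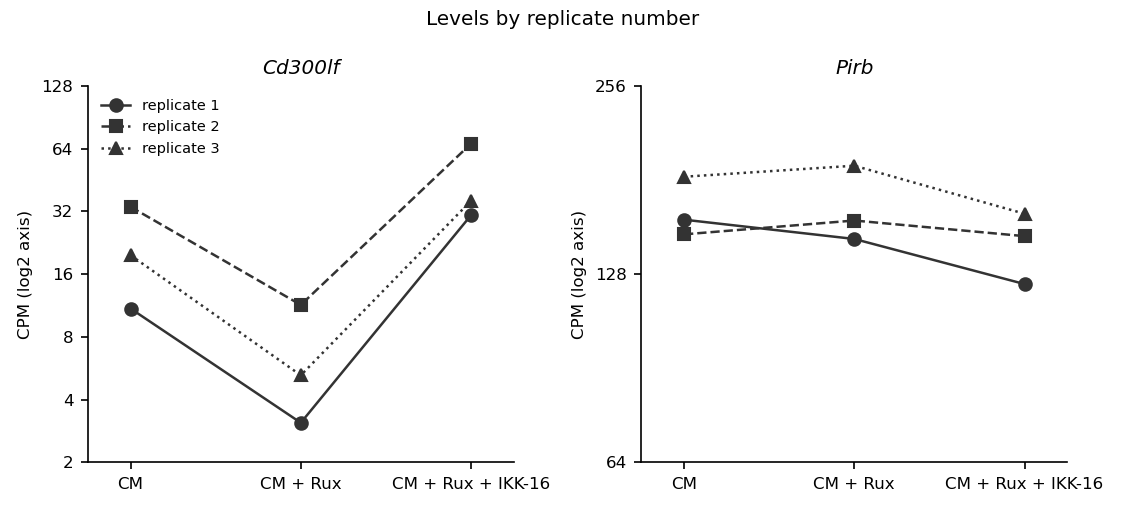
Levels (y axis, CPM, log2 axis) of Cd300lf and Pirb in CM, CM + Rux and CM + Rux + IKK-16 (x axis), with lines joining samples of the same replicate number. In all 3 replicate numbers Cd300lf was lowest in CM + Rux and highest with IKK-16, while Pirb stayed between 123 and 191 CPM.

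The order across the 3 CM groups was the same in every replicate number for Cd300lf. In CM + Rux its level was 0.283, 0.338 and 0.265 times that of CM, and with IKK-16 it was 2.81, 2.01 and 1.83 times that of CM. CM + Rux against CM gave a log2 fold change of -1.70 (SE 0.521), beside -1.99 for the samples labelled 2 h, a comparison that shares the CM samples. CM + Rux + IKK-16 was 1.04 above CM (SE 0.490), 3.03 above CM + Rux 2 h (SE 0.643) and 2.23 above DMEM (SE 0.602) on the log2 scale. The last value was 3.25 without replicate 2 of DMEM.

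By group mean, Cd300lf decreased from CM + Rux + IKK-16 at 44.8 ± 20.01 CPM (SD, n = 3) to CM at 21.5 ± 11.5 (n = 3), DMEM at 9.66 ± 6.98 (n = 2), DMEM + Rux at 9.19 ± 2.05 (n = 3), CM + Rux at 6.58 ± 4.31 (n = 3) and CM + Rux 2 h at 5.57 ± 1.12 (n = 2). The ranges of neighbours in this order overlapped at every step. The group means spanned 2.92 on the log2 scale for Cd300lf, against 0.78 for Lilrb4a and 1.26 to 1.62 for the other 4 genes.

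Cd300a and Cd300lb were also higher with IKK-16 than in CM + Rux, by less. As for Cd300lf, their samples did not overlap between the groups, from which nothing is read because the genes were chosen with this comparison. Cd300a was 110.2, 119.8 and 113 CPM in CM + Rux and 189.5, 165 and 199 CPM with IKK-16, a log2 fold change of 0.69 (SE 0.104). These levels overlapped those of CM, where it was 146 to 172 CPM, and were below the 298 CPM of the lower DMEM sample.

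Cd300lb was 213, 221 and 211 CPM in CM + Rux and 343, 303 and 313 CPM with IKK-16, a log2 fold change of 0.57 (SE 0.116). Unlike Cd300a it was at the level of CM in CM + Rux (0.0059, SE 0.116), and the IKK-16 samples also stood above all 3 CM samples. They were below the 538 CPM of the lower DMEM sample.

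Cd300ld was 84.7, 129 and 68.7 CPM in CM + Rux and 129, 158 and 103 CPM with IKK-16. The groups overlapped, but the ratio within each replicate number was above 1, at 1.52, 1.22 and 1.50. Its log2 fold change was 0.46 (SE 0.290).

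The 2 inhibitory receptors outside the CD300 cluster showed smaller values. Lilrb4a was 426, 469 and 465 CPM in CM + Rux and 476, 689 and 465 CPM with IKK-16, with overlap between the groups and replicate 2 apart from the others. Its log2 fold change was 0.26 (SE 0.136), and 0.053 without replicate 2 of CM + Rux + IKK-16. Pirb was 146, 156 and 191 CPM in CM + Rux and 123, 147 and 159.9 CPM with IKK-16, slightly lower in each replicate number. Its log2 fold change was -0.19 (SE 0.125), and all 3 IKK-16 samples were below the 326 CPM of the lower DMEM sample.

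The marker sums of macrophages, neutrophils, mast cells, dendritic cells, B cells, T and NK cells and epithelial cells each overlapped between CM + Rux and CM + Rux + IKK-16. Mast cell markers, of interest because mast cells carry Cd300lf, summed to 0.108 to 0.339 CPM in CM + Rux and 0.0772 to 0.214 CPM with IKK-16, and neutrophil markers to 5.90 to 7.42 and 3.42 to 6.78 CPM.

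Ruxolitinib labelled 4 h and 2 h gave unlike values for several of the genes against the same CM samples. Pirb was 0.013 on the log2 scale above CM at 4 h and 0.69 at 2 h, and Cd300a was -0.50 at 4 h and 0.29 at 2 h. Lilrb4a was -0.42 and 0.37, and Cd300lb 0.0059 and 0.44. Cd300ld was 0.26 and 0.73, and Cd300lf -1.70 and -1.99. Cd300a and Lilrb4a were thus on opposite sides of CM at the different labels, while Cd300lf was on the same side.

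**Figure D4:**
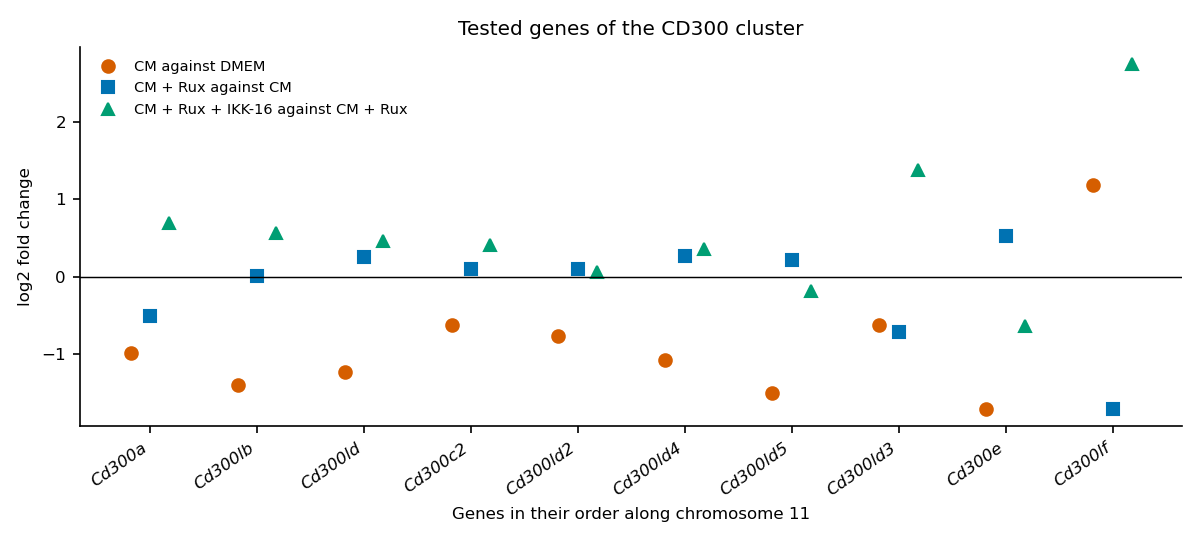
Log2 fold changes (y axis) of the 10 tested genes of the CD300 cluster in their order on chromosome 11 (x axis), in CM against DMEM, CM + Rux against CM, and CM + Rux + IKK-16 against CM + Rux. In CM against DMEM the other 9 genes lie below 0 and Cd300lf at 1.19, and with IKK-16 Cd300lf at 2.74 lies above all of them.

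The 4 CD300 genes belong to a cluster of 11 genes that spans 244 kb, of which 10 passed the filter. Of these 10, 8 fell with CM (24.1% of all genes tested were called lower) and none was called higher (20.9% of all). Without replicate 2 of DMEM 4 were called lower, Cd300a, Cd300lb, Cd300ld and Cd300ld4, and Cd300lf higher, and without any 1 sample of CM 7 were called lower. Apart from the genes above, Cd300e, an activating receptor of monocytes, fell by 1.70 on the log2 scale (adjusted p = 0.0273), from 21.9 to 6.58 CPM in the group means, Cd300ld5 by 1.50 (adjusted p = 0.0136), Cd300ld4 by 1.08 (adjusted p = 0.00121), Cd300ld2 by 0.76 (adjusted p = 0.0120) and Cd300c2 by 0.62 (adjusted p = 0.00335). Cd300e also lost its call without replicate 1 or replicate 3 of CM (adjusted p = 0.0779 and 0.0909). Cd300ld3 and Cd300lf were not called. With IKK-16 the values of the cluster genes outside the 6 ran from -0.63 for Cd300e to 1.38 for Cd300ld3, whose group means were 0.523 and 1.44 CPM, and none was called.

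Per kilobase, the share of Cd300lf in the sum of the 4 CD300 receptors was 0.567% on average in DMEM (0.276 to 0.857%, n = 2) and 0.546% in DMEM + Rux (0.395 to 0.641%, n = 3). It was 2.85% in CM (1.65 to 3.98%, n = 3), 0.589% in CM + Rux 2 h (0.422 to 0.757%, n = 2), 0.915% in CM + Rux (0.467 to 1.45%, n = 3) and 4.20% with IKK-16 (2.81 to 6.21%, n = 3). Even at its highest, Cd300lf remained a small part of the CD300 RNA. The sum itself was 331 to 332 CPM per kilobase in DMEM, 129 to 164 in CM, 123 to 152 in CM + Rux and 195 to 212 with IKK-16.

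Fragments that align to several places were not counted, which touches Lilrb4a and Pirb most. Of the exon bases of Lilrb4a, 35.3% are shared on the same strand with Gm49339, where fragments were dropped as belonging to several genes, and 35.8% of the 75-base stretches of its longest transcript occur in Gm49339 or Lilr4b. Lilr4b, its neighbour and close relative, had group means of 1053 to 1744 CPM, with the highest value in CM + Rux 2 h, as for Lilrb4a. For Pirb, 30.1% of such stretches occur in other genes, among them the activating partners Pira2 and Lilra6. The shares were 1.56% for Cd300lf, 1.44% for Cd300a, 2.33% for Cd300ld and 0 for Cd300lb.

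**Figure D5:**
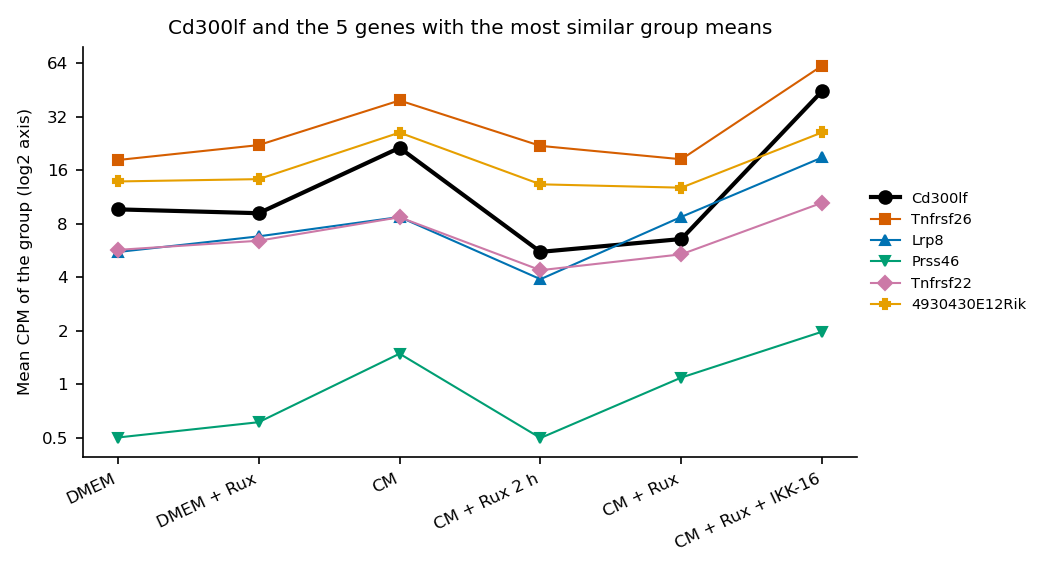
Group means (y axis, CPM, log2 axis) of Cd300lf and of the 5 genes whose 6 group means are most like it, over the 6 groups (x axis, lines join groups only to show the pattern). Of the groups, each of the 6 genes is highest with IKK-16 and second highest in CM, except Lrp8, where CM + Rux is at 8.76 CPM and CM at 8.75 CPM.

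The genes with a pattern most like that of Cd300lf were sought among 11557 genes by the root mean square difference of the 6 centred group means of log2 CPM. The closest was Tnfrsf26 at 0.454, a decoy receptor of the TNF receptor superfamily, with group means of 18.3 CPM in DMEM, 22.2 in DMEM + Rux, 39.6 in CM, 22.0 in CM + Rux 2 h, 18.5 in CM + Rux and 62.3 with IKK-16. Lrp8, a receptor for reelin and apolipoprotein E, followed at 0.584, then Prss46 at 0.622, Tnfrsf22 at 0.635 and 4930430E12Rik at 0.636. The other 5 receptor genes were far from it, at ranks 6439 for Lilrb4a to 10463 for Pirb. This likeness is over 6 group means from the same samples and includes the groups by which Cd300lf was chosen.

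The receptors' relatives and partners were examined in 5 lists outside the 6 genes, with 65 genes tested. Because earlier results of these data were known when the lists were made, calls of list genes with IKK-16 are a description. They are no independent support for the choice of the 6 genes. In CM against DMEM 18 of them were higher and 19 lower, against 20.9% and 24.1% of all genes tested. The list of other CD300 and leukocyte immunoglobulin-like receptor genes had 11 tested. With CM 8 fell and none rose, against 24.1% of all genes called lower and 20.9% called higher. The median log2 fold change was -0.94, against -0.0050 for all genes, and Cd300e and Cd300ld5 had the largest falls of those called. Without replicate 2 of DMEM 2 of the 11 were called lower, Cd300ld4 and Lilra6, and without any 1 sample of CM 6. The counterparts of Pirb among them, Lilra6 and Pira2, fell by 1.15 (adjusted p = 1.58e-04) and 0.91 (adjusted p = 0.0225), from 74.3 to 33.4 CPM for Lilra6, and the call of Pira2 was also lost without replicate 1 or replicate 2 of CM. In CM + Rux 2 h Lilra6 rose like Pirb, by 0.87 (adjusted p = 0.00276), with which it shares sequence. None of the list was called with IKK-16, in CM + Rux against CM or in DMEM + Rux against DMEM.

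Among 8 tested ligands of these receptors, Angptl2, a secreted ligand of Pirb, fell with CM by 1.35 (adjusted p = 0.00180). Its estimate with IKK-16, 2.50 on the log2 scale, is given with no test because its place near the top of that ranking was known when the list was made. Its group means were 41.5 CPM in DMEM, 16.1 in CM, 9.49 in CM + Rux and 53.6 with IKK-16, and the CM + Rux and IKK-16 samples did not overlap. Fn1, fibronectin, rose with CM by 0.86 (adjusted p = 0.0330). That call was lost without replicate 1 of DMEM (0.51, adjusted p = 0.287), without replicate 1 or replicate 2 of CM (adjusted p = 0.0547 and 0.0970) and with total counts alone (0.55, adjusted p = 0.133). Rtn4, which encodes the Pirb ligand Nogo, fell by 0.54 (adjusted p = 1.43e-05). The median of the list was 0.14 in CM against DMEM and -0.014 with IKK-16, where that of all genes was -0.0019.

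Of the 14 tested signalling genes downstream, 5 were called higher with CM (20.9% of all genes tested). The kinase Fgr rose most, by 1.87 (adjusted p = 1.78e-04), and the 5 also held Syk, Lyn and Ptpn11, the gene of SHP-2. Pag1 and Cblb had the largest falls of 3 called lower (24.1% of all), by 1.10 and 1.08. With IKK-16, Inpp5d, which encodes the phosphatase SHIP-1, was higher by 0.98 (adjusted p = 0.0263) and went from 91.3 to 179.9 CPM in the group means. It lost the call without replicate 1 or 3 of CM + Rux and without replicate 2 or 3 of CM + Rux + IKK-16 (adjusted p 0.0591 to 0.0994). The list median was 0.17 in CM against DMEM and 0.074 with IKK-16.

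Other inhibitory receptors of macrophages (17 tested) moved in both directions with CM, with a median of -0.31. The counts were 6 up and 3 down, against 20.9% and 24.1% of all genes tested. Pecam1 (4.62) and Havcr2 (4.33), the gene of TIM-3, had the largest increases and Lair1 (-2.77) and Cd200r1 (-1.52) the largest decreases, with adjusted p from 1.68e-08 to 1.52e-05. With IKK-16, Cd200r1, the receptor of CD200, was higher by 1.08 (adjusted p = 0.00162), and Fcgr2b, the inhibitory Fc receptor, and Milr1 were lower by 1.35 (adjusted p = 0.00828) and 0.63 (adjusted p = 7.41e-04). The median was -0.20. In CM + Rux 2 h 4 rose and 7 fell, against 14.6% and 13.3% of all genes tested. Lair1 rose by 2.42 (adjusted p = 2.09e-07) and Pecam1 fell by 4.37 (adjusted p = 3.12e-06). Activating receptors and adaptors (15 tested) gave 6 up and 3 down with CM, against the same 20.9% and 24.1%. Trem1 rose most, with group means of 0.58 CPM in DMEM and 159.9 CPM in CM. Cd200r4 was the 1 gene of this list called with IKK-16, higher by 1.03 (adjusted p = 0.00686), where 4.07% of all genes tested were called higher.

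Over the 5 lists, 4 genes passed the thresholds for higher and 3 for lower with IKK-16, where 4.07% and 3.66% of all genes tested did. Angptl2 is 1 of the 4 and its place in that ranking was known beforehand. The count of higher genes is therefore not read against the share of all genes. With the replicate number as a block, since these numbers paired the samples, 4 were higher, again with Angptl2 counted, and 6 lower. In CM + Rux against CM the counts were 0 higher and 3 lower (Clec4n, Fcgr2b and Siglecf), against 1.2% and 2.13% of all genes, and 2 and 10 with the block. The call of Fcgr2b was lost without replicate 1 of CM + Rux (adjusted p = 0.0745) and that of Siglecf without any 1 sample of either group (adjusted p 0.0793 to 0.144). In CM + Rux 2 h against CM the counts were 11 higher and 13 lower, against 14.6% and 13.3% of all genes. The lists were drawn up with earlier results of these data known.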

How the data were processed

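The authors trimmed reads with Trimmomatic 0.33, aligned them to mouse GRCm38 with HISAT2 2.1.0 and counted fragments per Ensembl 100 gene with featureCounts 1.6.2, on the reverse strand, with both ends mapped, at a mapping quality of at least 10, leaving out fragments with several alignments or genes. The deposited values are whole-number counts, not scaled. Groups and replicate numbers follow the labels. Symbols came from GENCODE M21, an older annotation of the same build, and matched 55141 of 55487 identifiers.

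Counts were filtered (above 1 CPM in at least 2 samples), scaled by RLE and fitted with edgeR 4.0.16 (quasi-likelihood test, limma 3.58.1, R 4.3.3) in 1 model of 16 samples and 6 groups, with Benjamini-Hochberg adjustment over 12372 genes. The threshold of 0.05, the fold threshold of 0.5, the scaling and the filter follow the methods of the study. The method was tested on simulated counts for CM against DMEM only, with the same dispersion in every gene and no effect of replicate number. The simulation thus did not cover genes that vary as much as Cd300lf or paired samples. Figures and tables used Python 3.11.15, pandas 2.3.3, numpy 2.4.6 and matplotlib 3.10.9.

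The genes, lists and tests were chosen with earlier results of these data known. Named list genes are the 2 with the largest change in each direction among those called with a mean of at least 1 CPM, or all where at most 5 were called in a direction. Fam83f was named after its value was seen, as the gene next to Cd300lf in rank. Some list and marker genes are not reported here. Alternatives were TMM normalization, total counts alone, no filter, the filterByExpr filter, the replicate block, a fit of only the groups compared, DESeq2 1.42.0 and each sample left out. Deviations of same-numbered samples correlated at 0.503 to 0.631 between CM + Rux + IKK-16 and CM + Rux, 0.433 to 0.621 between CM + Rux and CM, and 0.391 to 0.548 between CM + Rux + IKK-16 and CM (3 pairs each), so the numbers pair these samples. The other comparisons share 2 numbers each. No replicates were copies of each other.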

Additional observations from a re-analysis of the deposited data

Results flagged for a closer look

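The difference between the effects of ruxolitinib on Pirb in CM (labelled 2 h) and in DMEM, 0.70 on the log2 scale, drew attention because the test of that difference called it (adjusted p = 0.0190). Pirb was 254 and 271 CPM in CM + Rux 2 h against 148 to 183 CPM in CM, and 294 to 366 CPM in DMEM + Rux against 326 and 360 CPM in DMEM. CM + Rux labelled 4 h was at the level of CM, 0.013 above it on the log2 scale. The CM, DMEM and DMEM + Rux samples carry no time in their labels, so ruxolitinib and treatment time cannot be told apart in this difference.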

How the results depend on the processing

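Cd300a, Cd300lb, Cd300ld and Pirb stayed lower and called in CM against DMEM under every alternative run, with adjusted p of at most 0.0275. DESeq2 and no filter called 2 genes higher in CM + Rux 2 h against CM, where edgeR called 1. Without the filter, the 6 genes gave 1 call higher in CM against DMEM, and 2 higher and 1 lower for the difference in the ruxolitinib effect. The comparisons that share 2 replicate numbers gave, with the replicate block, 1 gene higher in CM against DMEM (Cd300lf, 1.21, adjusted p = 0.00122), 2 higher in CM + Rux 2 h against CM (Pirb and Cd300ld, the latter 0.76), and 2 higher and 1 lower in the difference (Pirb, Cd300ld and, lower, Cd300lf at -2.29). The block also called Cd300lf lower in CM + Rux 2 h against DMEM + Rux (-1.08, adjusted p = 0.00676). The block moved Cd300lf with IKK-16 from 2.74 to 2.82 and turned DMEM + Rux against DMEM to 0.049 for Cd300lf and 0.043 for Cd300lb. Total counts alone left 0 called higher in CM + Rux 2 h against DMEM + Rux, and turned Lilrb4a in CM against DMEM to -0.12, and in DMEM + Rux Cd300lb to 0.00997 and Pirb to 0.0013. TMM turned Cd300lb there to 0.0013. The cause of these changes was not tested.

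Without 1 sample, calls among the 6 genes were 0 to 1 higher in CM against DMEM, 1 to 2 higher and 0 to 1 lower in CM + Rux 2 h against CM, 0 to 1 higher in CM + Rux 2 h against DMEM + Rux, and 0 to 2 higher and 0 to 1 lower in the difference. In DMEM + Rux against DMEM the log2 fold change ran from -0.66 to 0.97 for Cd300lf, -0.064 to 0.057 for Cd300lb and -0.083 to 0.084 for Pirb. Cd300ld ran from -0.64 to 0.00356 in CM + Rux 2 h against DMEM + Rux, and Cd300lf from 1.62 to 3.25 in CM + Rux + IKK-16 against DMEM.

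List genes called lower in CM against DMEM were 30 with total counts alone and 12 to 20 without 1 sample, against 19. In DMEM + Rux against DMEM they were 3 without the filter, 0 in a fit of only the groups compared and 0 to 2 without 1 sample. With IKK-16 6 were lower without the filter or with the block, 5 in a fit of only the groups compared and 3 to 5 without 1 sample. In CM + Rux against CM 1 was higher with total counts alone, DESeq2 or only the groups compared, 2 without the filter or with the block and 0 to 2 without 1 sample, and 8 were lower without the filter, 10 with the block, 6 with DESeq2 and 1 to 4 without 1 sample. In CM + Rux 2 h against CM 5 to 12 were higher without 1 sample. Cd300lf had at least 103 fragments in each sample, and groups held 2 or 3 samples.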
